A study of Mus musculus with 9 samples.

Results

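Amino acid carriers of the SLC7 family and their partner *Slc3a2* were followed in RNA of whole mouse lenses at E16.5. The set held 9 genes, chosen by symbol among the 55416 genes counted: the cationic carriers *Slc7a1*, *Slc7a2* and *Slc7a3*, the light chains *Slc7a5*, *Slc7a6*, *Slc7a7*, *Slc7a8* and *Slc7a11*, and the heavy chain gene *Slc3a2*. Lenses of 4 *Atf4* null embryos, homozygous for the Atf4tm1Tow allele, were compared with those of 5 wildtype littermates from crosses of heterozygous mice, and the labels name no treatment. The allele was carried in every tissue of the embryo and not in the lens alone, the background was a mix of C57Bl/6 and 129, and whether any embryo carried the *Bfsp2* deletion known from 129 mice was not determined. *Bfsp2*, a gene of the fiber list, had a mean of 2769 CPM (counts scaled to a common library size) in wildtype and 2005 CPM in the null. The comparison asked how the loss of ATF4, a transcription factor of the integrated stress response, changed the transcripts that let lens cells take up amino acids.

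The SLC7 family falls into a pair of branches. The cationic amino acid transporters work alone and bring in arginine, lysine and ornithine, while the light chains are joined by a disulfide bond to the glycoprotein CD98 heavy chain, encoded by *Slc3a2*, which carries them to the plasma membrane. The light chain decides what is moved: large neutral amino acids for LAT1 (*Slc7a5*) and LAT2 (*Slc7a8*), cationic against neutral amino acids for y+LAT1 (*Slc7a7*) and y+LAT2 (*Slc7a6*), and cystine in exchange for glutamate for xCT (*Slc7a11*). The lens has no blood vessels of its own, draws amino acids from the fluids around it, and uses cysteine to make the glutathione that keeps its proteins reduced.

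ATF4 binds DNA as a dimer with C/EBP proteins at composite elements of the form TGATGNAA, so the upstream sequences of the cystine carrier and of the heavy chain are shown, read from GRCm39 on each gene's own strand and ending at the base before the start of the canonical transcript. Capitals mark every match to TGATGNAA on either strand.
Slc7a11, chr3:50398064-50398213, minus strand: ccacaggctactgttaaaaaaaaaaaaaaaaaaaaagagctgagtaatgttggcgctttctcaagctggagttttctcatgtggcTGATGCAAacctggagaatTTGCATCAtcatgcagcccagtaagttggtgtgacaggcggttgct
Slc3a2, chr19:8691244-8691393, minus strand: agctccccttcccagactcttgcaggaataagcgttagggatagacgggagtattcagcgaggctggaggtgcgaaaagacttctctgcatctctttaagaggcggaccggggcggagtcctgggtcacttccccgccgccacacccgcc
The 150 bases before *Slc7a11* held 2 matches that faced each other with 11 bases between them. The match on the gene's strand began 65 bases before the start (chr3:50398121-50398128) and the match on the opposite strand lay 46 bases before it (chr3:50398102-50398109), and both read TGATGCAA on their own strand. The 150 bases before *Slc3a2*, which lie inside the annotated span of the gene because longer transcripts start farther upstream, held none.

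In windows from 250 bases before to 50 bases after the start, *Slc7a11* was the only member with a match to TGATGNAA on either strand. Such windows held at least 1 match in 837 of 21770 protein-coding genes (3.84%) and 2 or more in 21 of them (0.0965%). Among the 12851 protein-coding genes that were tested for expression here, the shares were 2.37% and 0.0467%. In 2000 bases around the start, where 22.0% of all protein-coding genes had a match, *Slc7a1*, *Slc7a3* and *Slc7a7* had matches as well. They are shown with 6 bases on each side, on the gene's strand and with the position of the match alone.
Slc7a1, chr5:148336641-148336648, untranslated part of exon 1: cgcggcTGATGAAAccggct
Slc7a1, chr5:148336310-148336317, intron 1: ggtgcaTGATGCAAcagcgg
Slc7a3, chrX:100128782-100128789, intron 1, match on the opposite strand: ttgcaaTTGCATCAgcgcaa
Slc7a7, chr14:54648552-54648559, upstream of the canonical start and inside the span of longer transcripts, match on the opposite strand: ttctccTTCCATCAtgggct
No match was found within 1000 bases of the start of *Slc7a2*, *Slc7a5*, *Slc7a6*, *Slc7a8* or *Slc3a2*. A match is a stretch of letters and not a measured binding site.

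**Figure D1:**
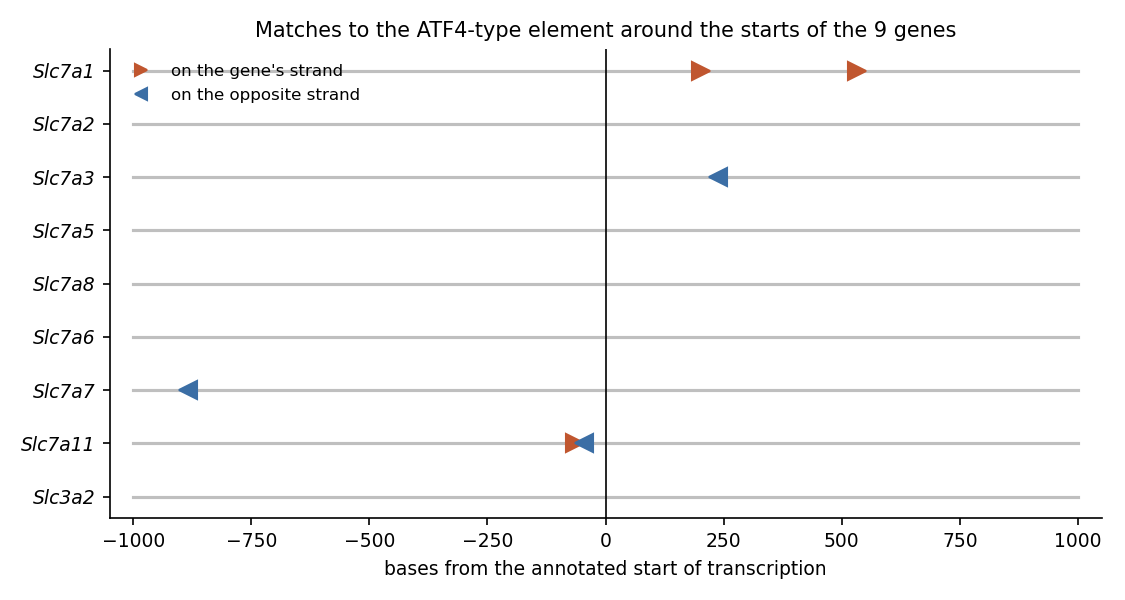
Matches to the element TGATGNAA (arrowheads, pointing along the strand that holds them) by distance in bases from the annotated start of transcription of each member (rows). The pair at *Slc7a11*, 65 and 46 bases upstream, are the matches nearest to a start, and 5 members have none within 1000 bases.

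The libraries held between 7440807 and 8906996 counts assigned to genes, and 14903 genes passed a filter on low counts and were tested by edgeR's quasi-likelihood method. Transcripts of *Atf4* (chr15, 80139372 to 80141745) stood at 119 to 155 CPM in the wildtype libraries and at 0.582 to 10.6 CPM in the null libraries. Every gene of the lens epithelium list (12 genes) and all genes of the lens fiber list (12 genes) other than *Lim2*, which was at 0 in every library, had counts. The epithelial list summed to 2450 to 3100 CPM in wildtype and 1900 to 2340 CPM in null libraries, and 6 of its 12 genes were called lower and 1 higher. The fiber list summed to 31900 to 60500 CPM and 24100 to 57500 CPM, with 4 genes called lower and none higher. Wildtype library 5 stood apart: 12 skeletal muscle genes summed to 9520 CPM and 10 mesenchyme genes to 15600 CPM in it, against at most 51.1 and 289 CPM in the other wildtype libraries, and its fiber sum of 31900 CPM was the lowest of the wildtype libraries. The main results that it touches are given with and without it. The mesenchyme genes also moved with genotype outside that library, at 429 to 788 CPM in the null against 213 to 289 CPM in wildtype libraries 1 to 4, with none of the 10 called, and the muscle genes summed to 29.4 to 122 CPM in the null. Their part in the results below was not tested. The 12 retina genes summed to 402 to 1160 CPM in the null and 245 to 439 CPM in the wildtype libraries, and 4 of them were called higher. Endothelial genes (10) went from 392 to 712 CPM in wildtype to 231 to 458 CPM in the null and red cell genes (9) from 231 to 744 CPM to 183 to 256 CPM, each with 1 gene called lower, and of the pigment cell genes (8) *Rpe65* was at 0 in every library and none was called. The shares of these cells were not measured, and in whole lens RNA fewer cells of a type and less RNA per cell cannot be told apart.

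The SLC7 transcripts were mostly lower without ATF4. Of the 8 members that passed the filter, 7 were lower by sign and 1 was higher, and 4 fell at an adjusted p below 0.05: *Slc7a11*, *Slc7a1*, *Slc7a8* and *Slc7a2*. No member rose at that threshold. Among all genes tested, 547 (3.67%) were called lower and 333 (2.23%) higher. The CPM of the genotypes did not overlap for 3 members that were lower, *Slc7a2*, *Slc7a8* and *Slc7a11*, and for 1 that was higher, *Slc7a6*, while 832 of all genes tested (5.58%) were lower and 693 (4.65%) higher with no overlap. The median log2 fold change of the 8 members was -0.81, and that of all genes tested was 0.000716. *Slc7a3* did not pass the filter and is described by its counts. Unless another setting or a left-out library is named, every adjusted p below comes from that edgeR fit, adjusted by Benjamini and Hochberg's method over all genes tested. The exact permutation p beside it runs over the 126 ways to label 4 libraries null and 5 wildtype, is two-sided, and cannot go below 0.0079.

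**Figure D2:**
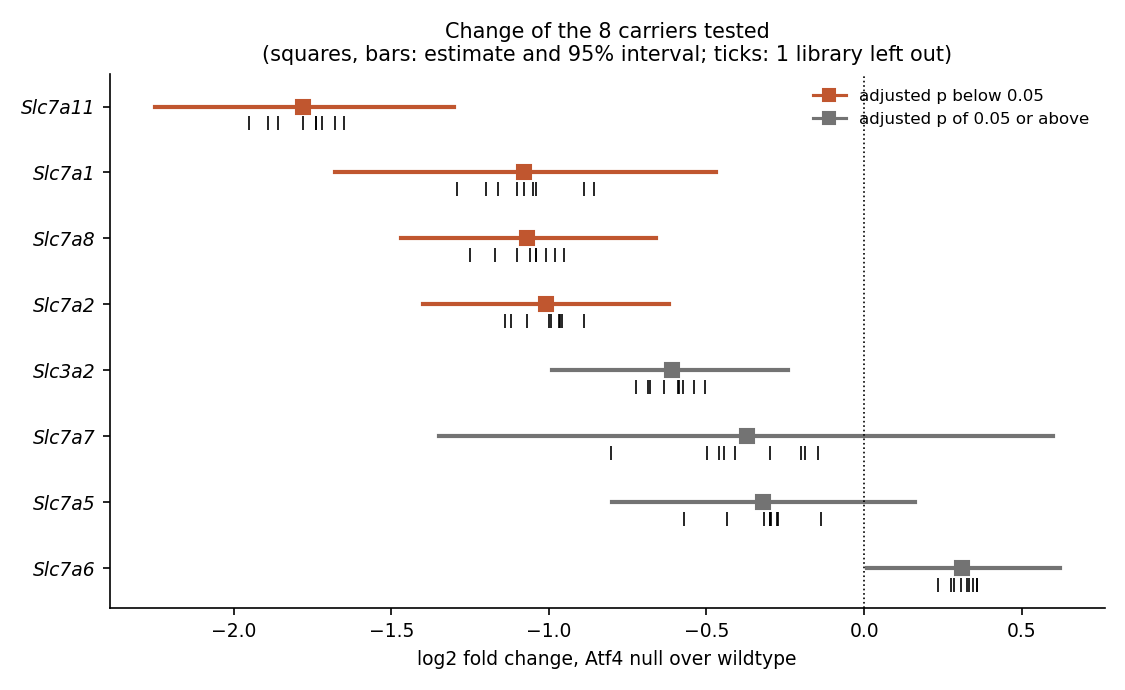
Log2 fold change of *Atf4* null over wildtype for the 8 members tested (squares, with 95% intervals as bars) and the estimates with each of the 9 libraries left out in turn (ticks). *Slc7a11* lies farthest from 0 at -1.78, and *Slc7a6* is the only member to the right of 0.

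The order of the members in wildtype lenses was set by CPM per kilobase of summed exon length (written FPKM). *Slc7a5* led with 139 ± 27.1 FPKM (SD, n = 5), followed by *Slc3a2* with 56.2 ± 11.7, *Slc7a2* with 34.6 ± 6.44 and *Slc7a8* with 20.5 ± 3.63. *Slc7a6* with 6.37 ± 0.639, *Slc7a1* with 5.51 ± 1.98 and *Slc7a11* with 5.17 ± 1.03 formed a middle group whose wildtype ranges overlapped from one to the next. *Slc7a7* with 1.08 ± 0.353 and *Slc7a3* with 0.17 ± 0.131 came last. The ranges of *Slc3a2* and *Slc7a2*, and of *Slc7a2* and *Slc7a8*, overlapped as well, yet within each of the 5 wildtype libraries *Slc3a2* was above *Slc7a2* and *Slc7a2* above *Slc7a8*. With the longest transcript as length in place of the summed exons the levels were higher, at 147 for *Slc7a5*, 84.7 for *Slc3a2*, 41.8 for *Slc7a2*, 37.9 for *Slc7a8*, 10.4 for *Slc7a6*, 8.74 for *Slc7a1*, 8.7 for *Slc7a11*, 1.84 for *Slc7a7* and 0.208 for *Slc7a3*, in the same order of means. The carrier of large neutral amino acids thus had the highest transcript level of the 9 genes and the cystine carrier one of the lower levels, on this scale.

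**Figure D3:**
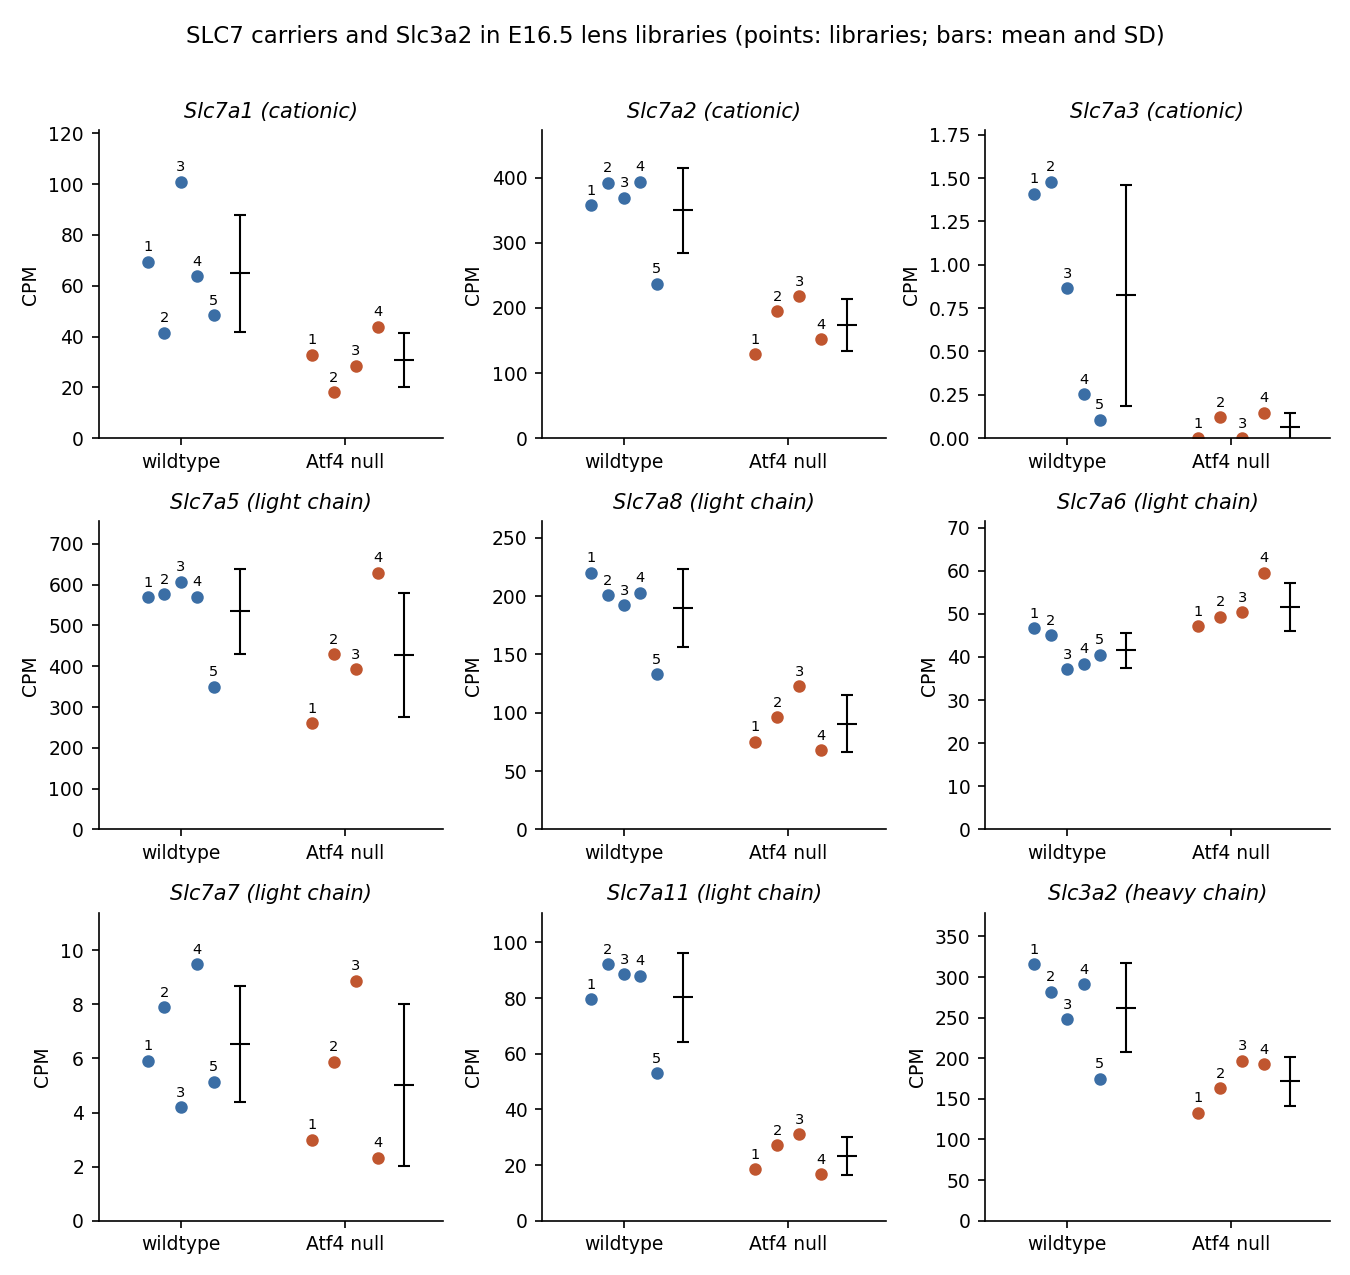
CPM of each member (panels, each with its own axis from 0) in the 5 wildtype and 4 *Atf4* null libraries, with library numbers beside the points and the mean and SD as bars. The points of *Slc7a2*, *Slc7a8* and *Slc7a11*, lower in the null, and of *Slc7a6*, higher in the null, do not overlap between genotypes, and wildtype library 5 is the lowest wildtype point for 6 of the 9 genes.

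*Slc7a11*, the cystine and glutamate exchanger (ENSMUSG00000027737, chr3, 49846975 to 50398070, minus strand), fell the most of the 8 members tested. It stood at 79.6, 92.2, 88.6, 88.0 and 53.0 CPM in wildtype libraries 1 to 5 and at 18.5, 27.1, 31.0 and 16.7 CPM in null libraries 1 to 4. Every null library was below every wildtype library, and the lowest wildtype value was that of library 5. The mean went from 80.3 ± 15.9 CPM (SD, n = 5) to 23.4 ± 6.83 CPM (n = 4), which is 29.1% of wildtype. The log2 fold change was -1.78 with an SE of 0.22 and an adjusted p of 0.000377, and its exact permutation p of 0.0079 was the smallest possible. Its 95% interval ran from -2.25 to -1.3, which spans 21.0% to 40.5% of the wildtype level. Without wildtype library 5 the log2 fold change was -1.89. The facing pair of matches shown above lies upstream of this gene, while *Slc7a2* and *Slc7a8*, also called lower, had no match within 1000 bases. Binding was not measured, and a link between matches and falls was not tested.

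A short list of 8 cystine and glutathione genes, which leaves out many genes of glutathione metabolism, was read beside it. Of these, 7 were tested, none was called lower and 1 was called higher, and the median log2 fold change was -0.14. *Gsr*, glutathione reductase, rose from 26.7 ± 4.69 to 44.8 ± 9.84 CPM, a log2 fold change of 0.75 with an adjusted p of 0.0341. That call was lost without null library 1 or 4 or without wildtype library 1, 2 or 3, at adjusted p values from 0.0665 to 0.0934. *Gclc* and *Gclm*, the subunits of the enzyme that starts glutathione synthesis, had log2 fold changes of -0.14 and -0.35 with adjusted p values of 0.759 and 0.49. *Nfe2l2*, which encodes the factor NRF2, had a value of -0.26 with an adjusted p of 0.445. Outside the list, *Ggct*, *Gpx1* and *Gstm7*, genes of glutathione breakdown and use, were called lower, with log2 fold changes of -1.35, -0.90 and -1.64 and adjusted p values of 0.0059, 0.0134 and 0.0067. These 6 genes were named after their values were seen.

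*Slc7a2*, the cationic carrier CAT2 (ENSMUSG00000031596, chr8, 41315431 to 41375345, plus strand), was the main cationic carrier by level and its level fell with no overlap between genotypes. It was at 358, 392, 369, 394 and 237 CPM in the wildtype libraries and at 129, 195, 218 and 152 CPM in the null libraries. Null library 3, the highest of the null, lay just under wildtype library 5, and the genotypes did not overlap. The mean of 350 ± 65.1 CPM in wildtype compared with 173 ± 40.1 CPM in the null, 49.6% of wildtype. The log2 fold change was -1.01 with an SE of 0.18, an adjusted p of 0.005 and an exact permutation p of 0.016. Without wildtype library 5 it was -1.12, with an adjusted p of 0.000134.

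*Slc7a1*, CAT1, the cationic carrier found in most tissues (ENSMUSG00000041313, chr5, 148264220 to 148336848, minus strand), fell by a like amount with more spread. The wildtype libraries had 69.5, 41.5, 101, 63.7 and 48.5 CPM and the null libraries 32.8, 18.0, 28.6 and 43.8 CPM. Null libraries 1 to 3 were below every wildtype library, while null library 4 was above wildtype library 2. The coefficient of variation was 35.9% in wildtype and 34.7% in the null, against 4.34% and 6.2% expected from counting alone. The mean of 30.8 ± 10.7 CPM in the null was 47.5% of the wildtype mean of 64.9 ± 23.3 CPM, with a log2 fold change of -1.08, an SE of 0.28, an adjusted p of 0.039 and an exact permutation p of 0.024. The call was lost without null library 1, 2 or 3 (adjusted p of 0.067, 0.116 and 0.112) and without wildtype library 1, 3 or 4 (0.0818, 0.0985 and 0.077), with fold changes from -0.86 to -1.29 over all libraries left out.

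*Slc7a3*, CAT3, a cationic carrier best known from the brain (ENSMUSG00000031297, chrX, 100122745 to 100129631, minus strand), was barely detected. It had 11, 12, 7, 2 and 1 counts in the wildtype libraries and 0, 1, 0 and 1 in the null libraries. Wildtype libraries 1 to 3 held nearly all of them, and wildtype library 5, with 1 count, lay within the range of the null libraries. The 33 counts against 2 gave a ratio of 13.8 for wildtype over null, corrected for library size, with an exact interval of 3.52 to 118 that covers counting error only. Fitted without the filter, its log2 fold change had an adjusted p of 0.322.

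The cationic branch as a sum went from 40.3 ± 7.27 FPKM in wildtype to 19.8 ± 3.53 FPKM in the null. The lowest wildtype sum was 27.5 and the highest null sum 24, so the genotypes did not overlap. That lowest wildtype sum was library 5, and the other 4 lay between 41.6 and 45.3. *Slc7a2* made up 85.9% of that sum in wildtype and 86.1% in the null, and *Slc7a1* 13.7% and 13.8%. These 2 shares differed by less than the spread between libraries while the total was lower, and the share of *Slc7a3* was 0.402 ± 0.306% in wildtype and 0.0697 ± 0.0822% in the null, with overlap.

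*Slc7a8*, LAT2 (ENSMUSG00000022180, chr14, 54959630 to 55019649, minus strand), fell to a like extent among the light chains for neutral amino acids. It was at 220, 201, 192, 203 and 133 CPM in the wildtype and at 75.3, 96.2, 123 and 68.0 CPM in the null libraries. Again the genotypes did not overlap, and the narrow gap lay between null library 3 and wildtype library 5. The means were 190 ± 33.5 and 90.7 ± 24.7 CPM, so that the null level was 47.8% of wildtype. Its log2 fold change was -1.07 with an SE of 0.19, an adjusted p of 0.00452 and an exact permutation p of 0.016. Leaving out wildtype library 5 gave -1.17, with an adjusted p of 0.000184.

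*Slc7a5*, LAT1 (ENSMUSG00000040010, chr8, 122607884 to 122634433, minus strand), which carries leucine and other large neutral amino acids, did not pass the test. It was at 569, 577, 607, 570 and 350 CPM in the wildtype and at 261, 429, 393 and 629 CPM in the null libraries. Null library 4 was above every wildtype library and null library 1 below every one. The mean was 535 ± 104 CPM in wildtype and 428 ± 152 CPM in the null, and the log2 fold change was -0.32 with an SE of 0.22, an adjusted p of 0.483 and an exact permutation p of 0.25. It was -0.43 without wildtype library 5 (adjusted p of 0.196), -0.14 without null library 1 (0.778) and -0.57 without null library 4 (0.13), so the size of the difference rests on single libraries. The 95% interval from -0.8 to 0.16 reaches from 57.4% to 111% of the wildtype level with all 9 libraries.

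*Slc7a6*, y+LAT2 (ENSMUSG00000031904, chr8, 106895139 to 106925346, plus strand), exports cationic amino acids such as arginine in exchange for neutral ones, and was the only member with a higher mean in the null. The wildtype libraries had 46.6, 45.0, 37.1, 38.4 and 40.5 CPM and the null libraries 47.1, 49.3, 50.4 and 59.5 CPM. All null values were above all wildtype values, with null library 1 only just above wildtype library 1. The mean was 41.5 ± 4.16 CPM in wildtype and 51.6 ± 5.46 CPM in the null, a log2 fold change of 0.31 with an SE of 0.14. Its exact permutation p was 0.016 and its unadjusted p 0.0434, and the adjusted p of 0.236 did not pass, nor did any of 17 alternative settings (0.0643 to 0.429). *Slc7a6* was also the light chain for which wildtype library 5 lay closest to the other wildtype libraries, at 96.9% of their mean, where *Slc7a5*, *Slc7a8*, *Slc7a11* and *Slc3a2* were at 60.3% to 65.1%.

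*Slc7a7*, y+LAT1 (ENSMUSG00000000958, chr14, 54606895 to 54655603, minus strand), the y+L light chain known from epithelia and macrophages, had only 16 to 81 counts a library. Values of 5.91, 7.9, 4.2, 9.49 and 5.14 CPM in wildtype and 2.99, 5.88, 8.88 and 2.33 CPM in the null overlapped widely. The log2 fold change was -0.37 with a 95% interval of -1.35 to 0.6 and an adjusted p of 0.729. It was -0.8 without null library 3, -0.19 without null library 1, -0.14 without null library 4 and -0.2 without wildtype library 4, and passed the threshold under none of these. The coefficient of variation was 32.9% in wildtype and 59.8% in the null, against 13.7% and 15.1% from counting alone, so most of the spread lay between libraries. Macrophage genes summed to 90.1 to 115 CPM in wildtype and 92.2 to 126 CPM in null libraries, and none of the 12 was called. *Oxa1l* overlaps *Slc7a7* by 1976 bases on the other strand and had a log2 fold change of -0.11 with an adjusted p of 0.782.

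*Slc3a2*, the heavy chain (ENSMUSG00000010095, chr19, 8684245 to 8701108, minus strand), lay just outside the threshold. It was at 316, 282, 248, 291 and 175 CPM in the wildtype and at 133, 163, 197 and 193 CPM in the null libraries. The genotypes overlapped through wildtype library 5 alone: the other 4 wildtype libraries were all above the 4 null libraries. The mean went from 262 ± 54.7 to 171 ± 29.6 CPM, 65.3% of wildtype, with a log2 fold change of -0.61, an SE of 0.17, an adjusted p of 0.0545 and an exact permutation p of 0.032. Without wildtype library 5 the log2 fold change was -0.725 and the adjusted p 0.00288. The call was made under 8 of 17 alternative settings, and 1 of these 8 was among the 9 fits with 1 library left out. Of the alternatives with all 9 libraries, only TMM factors without crystallin genes did not make it, at an adjusted p of 0.0512. Over all 17 the adjusted p lay between 0.00288 and 0.143, and the direction was the same. *Snhg1*, a host gene of small nucleolar RNAs on the opposite strand, overlaps *Slc3a2* by 790 bases and rose from 13.6 to 30.5 CPM, a log2 fold change of 1.17 with an adjusted p of 0.0145. The kit kept the strand of the RNA, but the strand setting of the counting is not given in the sources used here, and what *Snhg1* adds to the counts of *Slc3a2* was not tested.

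Set against the heavy chain, the light chains fell apart into groups. *Slc7a11* had 0.0927 ± 0.0116 of the *Slc3a2* level in FPKM in wildtype and 0.0414 ± 0.0107 in the null, and *Slc7a8* had 0.368 ± 0.0185 and 0.269 ± 0.0621. Neither ratio overlapped between genotypes, so both light chains were lower also relative to *Slc3a2*. The ratio of *Slc7a6* was higher, at 0.219 ± 0.0286 against 0.118 ± 0.028, again with no overlap, and wildtype library 5 had the highest wildtype ratio of 0.166. Part of that rise lies in the denominator, since the null mean of *Slc3a2* was at 65.3% of wildtype in CPM and that of *Slc7a6* at 124%. *Slc7a5*, at 2.49 ± 0.292 and 2.99 ± 0.75, and *Slc7a7*, at 0.0193 ± 0.0053 and 0.0222 ± 0.0112, overlapped. The same 3 ratios were apart without wildtype library 5, and *Slc7a5* and *Slc7a7* still overlapped. These ratios are descriptions with no test, and how many of all genes tested would be apart when set against *Slc3a2* was not counted.

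**Figure D4:**
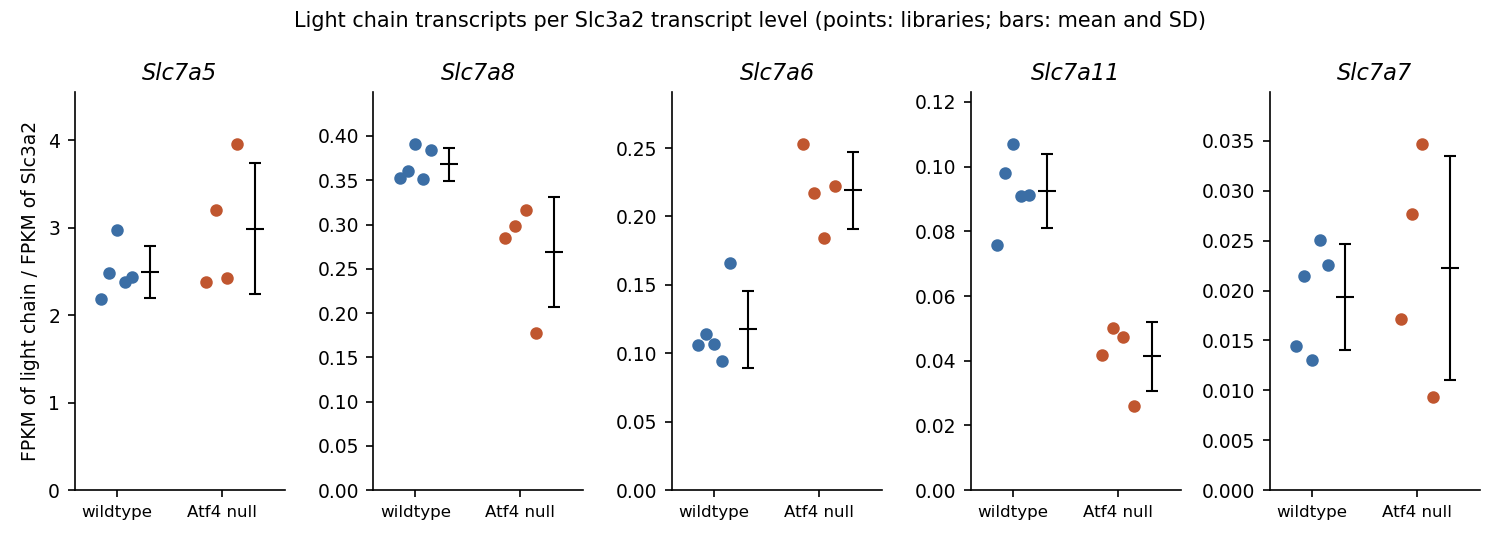
FPKM of each light chain divided by FPKM of *Slc3a2* in every library (points) with mean and SD (bars), for 5 wildtype and 4 *Atf4* null libraries, each panel with its own axis from 0. *Slc7a8* and *Slc7a11* are lower and *Slc7a6* is higher in every null library than in any wildtype library.

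*Slc7a5* dominated the light chains in both genotypes. It held 80.6 ± 1.52% of their summed FPKM in wildtype and 83.8 ± 4.66% in the null, which overlapped. The share of *Slc7a8* went from 12 ± 0.75% to 8.0 ± 2.85% and that of *Slc7a11* from 3.0 ± 0.158% to 1.22 ± 0.433%, without overlap. The share of *Slc7a6* was also apart once wildtype library 5 was left out, at 2.98% to 3.86% in wildtype and 5.04% to 8.53% in the null, and so was the summed level of the light chains, at 183 to 191 FPKM in wildtype and 84.9 to 182 FPKM in the null. The light chains together stood at 3.09 ± 0.317 per *Slc3a2* in wildtype and 3.54 ± 0.685 in the null, which overlapped. With the longest transcript as length in place of the summed exons, *Slc7a5* took 71.2% in wildtype and 75.9% in the null. On that length the shares of *Slc7a8* were 18.4% and 12.5%, those of *Slc7a6* 5.23% and 8.87%, and those of *Slc7a11* 4.21% and 1.75%.

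The level of *Slc7a5* moved with the fiber marker list from library to library. Per 1000 CPM of that list it lay between 9.4 and 11 CPM in the wildtype libraries and between 10.8 and 11.4 CPM in the null libraries, a mean of 10.3 ± 0.625 and 11 ± 0.295. Wildtype library 5 and null library 1, low in *Slc7a5*, were also the lowest of their genotypes in the list, and null library 4, high in *Slc7a5*, was the highest of the null. *Slc3a2* on the same scale was at 5.05 ± 0.426 in wildtype and 4.66 ± 1.02 in the null, 92.2% of wildtype, and overlapped. *Slc7a8* was at 69.8% of wildtype and *Slc7a2* at 70.9%, with overlap in both through null library 3 alone. That library was at 3.38 for *Slc7a8* and 5.99 for *Slc7a2*, just above the lowest wildtype values of 3.36 and 5.92. *Slc7a11* was at 1.55 ± 0.146 and 0.659 ± 0.251, 42.5% of wildtype, and was the only member of the 8 whose ranges did not overlap on this scale. Without wildtype library 5, *Slc7a6* was apart as well, at 0.649 to 0.823 in wildtype and 1.04 to 1.96 in the null, and so was *Slc7a5*, at 9.4 to 10.6 and 10.8 to 11.4, both higher in the null.

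**Figure D5:**
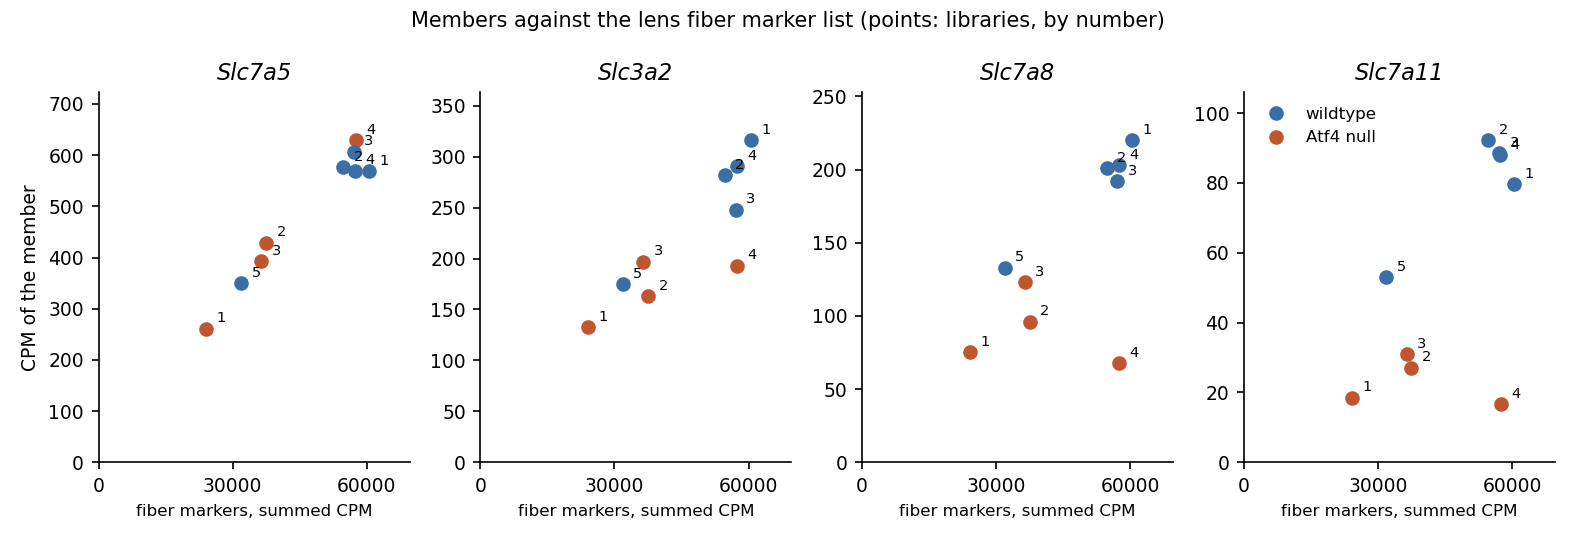
CPM of 4 members (vertical axes) against the summed CPM of the lens fiber marker list (horizontal axes) in each library, labelled by number within its genotype, with axes from 0. *Slc7a5* lies close to one line for both genotypes, while the null points of *Slc7a11* all lie lower than the wildtype points. Of the null libraries, only library 4 has a fiber sum like those of wildtype libraries 1 to 4.

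The fiber list is itself part of the comparison, since 4 of its genes were called lower. *Crybb1* and *Cryba1*, crystallin genes that made up 33.4% and 23.8% of its counts, had log2 fold changes of -0.2 and -0.57 and were not called (adjusted p of 0.721 and 0.189), while *Bfsp1*, a beaded filament gene with 10.9%, fell by 1.42 on the log2 scale with an adjusted p of 0.00417. On the scale of the epithelial list, *Slc7a2* (65.7% of wildtype), *Slc7a8* (62.8%) and *Slc7a11* (38.3%) were lower and *Slc7a6* (165%) higher without overlap. *Slc3a2* (87.7%), *Slc7a5* (110%), *Slc7a7* (98.9%) and *Slc7a1* (64.8%) overlapped there. The epithelial sum was itself lower in every null library than in any wildtype library, so a gene with unchanged CPM rises on that scale. How many of all genes tested were apart on either list scale was not counted. *Slc7a11* was lower in every null library than in any wildtype library in CPM and on both list scales. For *Slc7a2*, *Slc7a8* and *Slc7a6* the genotypes were apart in CPM and on the epithelial scale and overlapped on the fiber scale. That overlap came through null library 3 alone for *Slc7a2* and *Slc7a8*, and through wildtype library 5 alone for *Slc7a6*. In CPM and on both list scales, *Slc7a1*, *Slc7a5*, *Slc7a7* and *Slc3a2* overlapped. Without wildtype library 5, *Slc3a2* was apart in CPM and *Slc7a5* on the fiber scale. The part that the make-up of the lenses had in these changes was not tested, and both ratios were chosen after the values were seen.

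The genes whose pattern over the 9 libraries was nearest to that of *Slc3a2* were taken from 10849 genes with a mean of at least 50 counts, by the root mean square difference in log2 CPM centred on wildtype. *Ankrd46* was nearest with 0.106, followed by *Atp5f1b*, a subunit of mitochondrial ATP synthase, with 0.116 and *Aldh7a1*, an aldehyde dehydrogenase of lysine breakdown, with 0.122. Their log2 fold changes were -0.6, -0.55 and -0.63, next to -0.61 for *Slc3a2*. Of the members, *Slc7a5* with 0.28 and *Slc7a2* with 0.329 were nearest to the heavy chain and *Slc7a11* with 0.838 was farthest.

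The rest of the family was almost silent in these lenses. Of 8 other genes, 7 further SLC7 members and *Slc3a1*, the heavy chain of kidney and gut, only *Slc7a4* passed the filter, at 7.81 ± 3.25 CPM in wildtype and 6.33 ± 1.42 CPM in the null. The log2 difference was -0.3 (adjusted p of 0.751). *Slc7a10*, Asc-1, a carrier of small neutral amino acids, had 57 counts in wildtype library 5 and 1 count in null library 2 and none elsewhere, which places it in the library that also held muscle and mesenchyme transcripts.

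Amino acid carriers of other families were split between the directions. In a list of 26 carriers, 19 were tested, 2 were called lower and 1 higher, 9 were lower and 10 higher by sign, and the median log2 fold change was 0.07. *Slc1a4*, ASCT1, which exchanges alanine, serine and cysteine, fell from 56.3 ± 14.4 to 20.7 ± 6.05 CPM, a log2 fold change of -1.44 with an adjusted p of 0.00248. *Slc38a3*, SNAT3, a glutamine carrier, fell from 71.4 ± 16.7 to 28.1 ± 5.35 CPM, or -1.34 on the log2 scale with an adjusted p of 0.00122. *Slc6a6*, the taurine carrier, rose from 103 ± 18.6 to 203 ± 22.3 CPM, or 0.98 on the log2 scale with an adjusted p of 0.0011. These falls were of the size of those of *Slc7a1*, *Slc7a2* and *Slc7a8* or somewhat larger, and the changes were not tested against each other.

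Amino acid supply is read inside the cell by sensors of the kinase mTORC1, and leucine brought in by LAT1 is one of the signals. Of 17 genes of that sensing machinery, 16 were tested, 1 was called lower and none higher, with a median log2 fold change of -0.07. With library sizes in place of TMM factors, which raised the median of all genes to 0.125, 3 were called higher. The gene called was *Sesn1*, which encodes the sensor Sestrin-1, at 39.5 ± 3.38 CPM in wildtype and 20.8 ± 4.24 CPM in the null, a log2 fold change of -0.92 with an adjusted p of 0.00786.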

How the data were processed

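Lens RNA of each embryo was made into a library with a stranded low-input kit. Reads were trimmed (Trim Galore), freed of ribosomal sequence, aligned to GRCm39 (HISAT2) and counted per Ensembl gene (HTSeq) by the authors. The deposited values were whole, unnormalized counts, and HTSeq's 5 summary entries (44.6% to 47.7% of all entries) were left out. Gene symbols, exon lengths and start sites came from GENCODE vM39 on GRCm39 (54749 of 55416 genes had a symbol). edgeR 4.0.16 in R 4.3.3 was run on all genes (filterByExpr, TMM factors, quasi-likelihood test, Benjamini-Hochberg over 14903 genes, threshold 0.05), and was checked on simulated counts. CPM used TMM factors, FPKM divided CPM by summed exon length, and the exact permutation test used log2 CPM with a prior count of 2. Levels per lens marker list, and ratios without wildtype library 5, were added after the values were seen. Counting error alone came to 1.51% to 7.03% of the mean for the members tested other than *Slc7a7*, with 13.7% to 15.1%. Named genes were the 9 members, *Atf4*, the called genes of the other lists, the other SLC7 genes that passed the filter, the 3 genes nearest to *Slc3a2*, and, outside that rule and chosen after values were seen, *Gclc*, *Gclm*, *Nfe2l2*, *Ggct*, *Gpx1*, *Gstm7*, *Slc7a10*, *Bfsp2*, the leading genes of the fiber list, marker genes at 0 and the neighbours *Snhg1* and *Oxa1l*. The members and lists were chosen with earlier results of these data known. Alternatives were DESeq2 1.42.0, edgeR's exactTest, other scaling factors and filters, a robust fit, a replicate block and each library left out. Promoters were read from GRCm39.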

Additional observations from a re-analysis of the deposited data

Results flagged for a closer look

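Wildtype library 5 lay far from its group in 3 of the 30 groups of values examined. Chance flags about 1 in 20 independent groups, but these groups share libraries and genes, so the 3 flags cannot be weighed against that rate. *Slc7a2* was at 237 CPM in it and at 358 to 394 CPM in the other 4 wildtype libraries. *Slc7a5* was at 350 CPM against 569 to 607 CPM. The ratio of *Slc7a6* to *Slc3a2* in FPKM was 0.166 against 0.0944 to 0.114. The same library was low in lens fiber genes and held the muscle and mesenchyme transcripts described above, and their part in these values was not tested.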

How the results depend on the processing

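All 136 values of the 8 members over 17 alternatives kept their direction. *Slc7a2*, *Slc7a8* and *Slc7a11* passed the threshold in all 17, *Slc7a1* in 11 and *Slc3a2* in 8, and *Slc7a5*, *Slc7a6* and *Slc7a7* in none. Over all genes, 880 were called in the main test, 1438 with DESeq2 and 527 (without null library 2) to 1207 (without wildtype library 5) with 1 library left out; the cause was not tested. Carriers of other families called higher numbered 2 with no filter on low counts, and 1 to 2 with 1 library left out, the 2 without null library 4. With library sizes in place of TMM factors the median log2 fold change of all genes moved to 0.125 and the lower calls went from 62.2% to 35.7%, and the same members plus *Slc3a2* were called lower, while genes of the amino acid sensing list called higher went from 0 to 3. Wildtype and null libraries with the same number did not deviate together (r from -0.131 to 0.00802), and the bracketed names in the wildtype titles differ from those of the count tables, so the numbers do not pair them. With the replicate block, 852 genes were called, *Slc3a2* had a log2 fold change of -0.74 with an adjusted p of 0.0157, and *Gsr* was no longer called (adjusted p of 0.063). Replicate number 5 occurs in wildtype alone, so wildtype library 5 did not enter the genotype difference of the block fit. *Slc7a3* had too few counts to pass the filter.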
